A study of Mus musculus with 10 samples.

Results

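Of 18193 mouse genes measured on 10 Affymetrix expression arrays, 231 had their highest level in the 3 arrays labelled iPS. A gene was taken when its mean there was at least 7 on the log2 scale and at least 0.8 log2 units above the means of both other groups, which are 3 arrays labelled iPS-derived NSC and 4 brain NSC arrays. The values were robust multi-array average (RMA) expression values, where 1 unit is a factor of 2, and each gene was read by its brightest probe set. By their labels, which the marker genes contradict below, the arrays labelled iPS hold induced pluripotent stem cells (iPS), made by infecting neural stem cells (NSC) with a retrovirus of the pMX type that carried the mouse Oct4 cDNA. Per the labels these were grown on irradiated mouse embryonic fibroblasts with leukaemia inhibitory factor (LIF), from green colonies picked by hand. The arrays labelled iPS-derived NSC hold, again by label only, neural stem cells obtained from such one-factor (Oct4) iPS cells. The brain NSC arrays held the starting type of cell, derived from adult mouse brain and labelled OG2/Rosa26. All 3 groups go back to mice with the Oct4-eGFP transgene of the OG2 line, a green reporter of the Oct4 promoter, and the Rosa26 neo/lacZ marker, crossed with ICR females. The labels do not give the age or sex of the mice, how many clones were used, or whether arrays of a group came from separate cultures, so the spread between arrays may be technical.

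Embryonic and induced pluripotent stem cells are kept undifferentiated by Oct4, Nanog and a few partner factors, which neural stem cells lack apart from Sox2. Neural stem cells of the adult brain divide in response to fibroblast and epidermal growth factors and carry radial glial proteins such as Fabp7. Id proteins bind and block basic helix-loop-helix factors, Groucho (TLE) proteins are co-repressors of transcription, and Sprouty proteins dampen receptor tyrosine kinase signals. Each of these families has members among the 231 genes.

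The marker genes went against 2 of the 3 labels. The Oct4 gene Pou5f1 read 4.49, 4.78 and 4.72 in the arrays labelled iPS, 13.41, 13.004 and 13.45 in those labelled iPS-derived NSC, and 4.50, 4.53, 4.62 and 4.56 in brain NSC. Zfp42 (Rex1), which marks undifferentiated stem cells, averaged 3.54, 12.44 and 3.50 in these groups in that order, and the neural stem cell marker Fabp7 averaged 14.17, 4.43 and 14.45. Olig2, a factor of neural progenitors, averaged 12.78, 6.53 and 12.47, and Sox2, which both cell types use, 12.04, 12.15 and 12.17. The summed level of 27 pluripotency markers ran between 128.8 and 130.4 in the arrays labelled iPS, between 284.9 and 285.6 in those labelled iPS-derived NSC, and between 130.3 and 131.2 in brain NSC. Of 29 radial glia and neural stem cell markers, the sums were 291.7 to 293.0, 181.3 to 184.4 and 292.5 to 298.3. Without the member Lhx2, a choice made after the data were seen, the other 28 summed to 283.1 to 284.6, 177.8 to 181.2 and 285.55 to 290.5. The arrays labelled iPS then lay slightly below brain NSC, without overlap. The neural markers were thus near brain NSC levels in the arrays labelled iPS, and the pluripotency markers were high in those labelled iPS-derived NSC. Groups keep their deposited names below, and every direction that involves either of them rests on names that the markers contradict.

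Across the whole series the arrays labelled iPS and brain NSC were close. Of 18193 genes, 335 (1.84%) were called different between them, with 173 higher (0.951%) and 162 lower (0.89%) in the arrays labelled iPS; called means a limma adjusted p under 0.05 and a difference of at least 2-fold. Another 4598 genes (25.3%) were called between the arrays labelled iPS and iPS-derived NSC, and 4618 (25.4%) between iPS-derived NSC and brain NSC. Markers of cells that could be carried along were summed without the members among them, a choice made after the data were seen. The 22 feeder fibroblast markers summed to 125.7 to 126.4 in the arrays labelled iPS against 124.5 to 127.0 in brain NSC, the 20 microglial markers to 92.3 to 94.9 against 93.0 to 94.6, and 20 endothelial markers to 98.3 to 101.0 in both. Ependyma and choroid plexus markers did not overlap: without the member Sostdc1, 18 of them summed to 92.3 to 92.9 in the arrays labelled iPS against 90.1 to 91.2 in brain NSC. With Sostdc1 the sums were 99.3 to 100.2 against 95.0 to 96.1. Over all 19 of them the median difference from brain NSC was 0.02, with Sostdc1 and Otx2 called higher and 0 lower. The sums of astrocyte and neuron markers did not overlap either, and were lower in the arrays labelled iPS. Without the member Sparcl1, 18 astrocyte markers summed to 141.6 to 142.3 against 145.7 to 148.0 in brain NSC. The 26 neuron markers summed to 148.02 to 149.08 against 149.11 to 151.95. Their median difference from brain NSC was 0.003, and 0 were called. Over all 19 astrocyte markers the median difference was -0.03, with Id3, Apoe and S1pr1 called lower and Sparcl1 higher. The part of these lists in the results was not tested. In bulk RNA, fewer cells of a type and less RNA per cell cannot be told apart. The 3′ minus 5′ difference of Actb control probe sets, a measure of RNA integrity, was 0.57 ± 0.09 in the arrays labelled iPS against 0.32 ± 0.12 in brain NSC (SD, n = 3 and 4; exact permutation p = 0.0571, adjusted p = 0.171 over 6 tests). The same difference for Gapdh was -0.065 ± 0.049 against -0.201 ± 0.058 in brain NSC, with the same p-values. Neither measure overlapped between these groups. Actb ran between 0.497 and 0.667 in the arrays labelled iPS against 0.155 to 0.431 in brain NSC. Gapdh ran between -0.105 and -0.010 against -0.252 to -0.117. The part of both in the results was not tested.

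The members differed much less from brain NSC than from the arrays labelled iPS-derived NSC. These differences chose the members and are given as a description. The arrays labelled iPS lay 0.80 to 3.04 log2 units above brain NSC, with a median of 1.00, and 0.82 to 7.98 above the arrays labelled iPS-derived NSC, with a median of 1.90. For 206 members (89.2%) the smaller difference was the one from brain NSC. Over the 8700 genes with a mean of at least 7 in the arrays labelled iPS, the medians of both differences were 0.06 and 0.22. The rule took 1.27% of all genes and 2.66% of the 8700. All 3 arrays labelled iPS lay above all other 7 arrays for 207 members, which holds for 7.13% of all genes and 13% of the 8700. The margin, meaning the smaller of both differences, was at least 2 for 6 members, at least 1 for 101 and under 1 for 130.

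**Figure D1:**
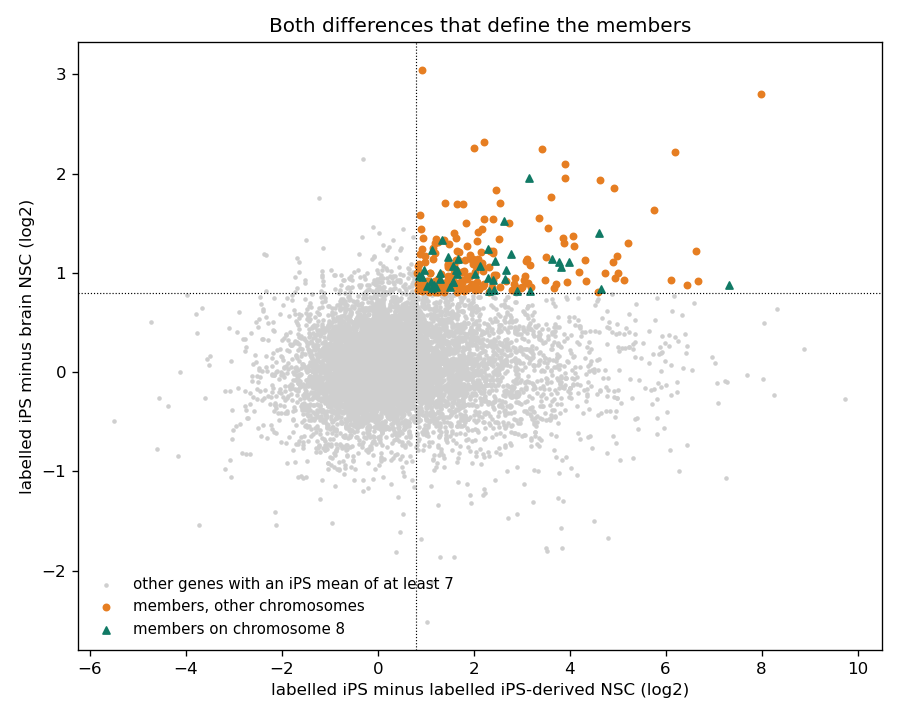
Each point is 1 of the 8700 genes with a mean of at least 7 in the arrays labelled iPS; the x axis is the difference of those arrays from the arrays labelled iPS-derived NSC and the y axis their difference from brain NSC, both in log2 units, with dotted lines at 0.8. The 231 members fill the upper right corner, most of them close to the lower line, and the 43 members on chromosome 8 are drawn as triangles.

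The members near the threshold show how gradual the edge is. Just inside lay Frmd6, Pde7a, a phosphodiesterase of cyclic AMP, and Sardh, the mitochondrial sarcosine dehydrogenase, each with a margin of 0.80. Just outside were Apba3, Plk2, a kinase of the Polo family, and Tysnd1, a peroxisomal protease, whose margins also round to 0.80. When 1 array labelled iPS was left out of the rule, 239, 227 and 232 genes were chosen without arrays 1, 2 and 3. The array left out had taken part only in picking each gene's brightest probe set. It lay at least 0.8 above both other group means for 184 (77.0%), 188 (82.8%) and 202 (87.1%) of them. Over all genes with a mean of at least 7 in the remaining arrays these shares were 2.54%, 2.94% and 2.65%. Every gene so chosen was above both means in the array left out, by 0.17 or more. The other 2 groups were the same in these checks, so the checks bear on the arrays labelled iPS alone. Arrays of that group correlated at 0.997 to 0.998 over all genes and may be technical repeats. High shares were therefore likely beforehand and are a description.

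Cd93, a transmembrane glycoprotein known from endothelial and myeloid cells, had the largest margin. It read 12.35, 12.17 and 12.28 in the arrays labelled iPS, 4.28, 4.21 and 4.36 in those labelled iPS-derived NSC, and 9.32, 9.41, 9.56 and 9.56 in brain NSC. The 3 groups did not overlap, and the arrays labelled iPS lay 2.80 above brain NSC. The defining endothelial markers were low in the same arrays, with means of 3.99 for Pecam1, 4.45 for Cdh5 and 5.29 for Cldn5, and the relatives Thbd (4.30), Clec14a (4.15) and Cd248 (6.60) of Cd93, picked after values were seen, were no members. Of the 4 further Cd93 probe sets, 2 met the rule and all 4 lay above both other groups, by 0.74 or more.

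Malat1, an abundant long noncoding RNA kept in the nucleus, read 11.56, 12.49 and 11.51 in the arrays labelled iPS, 8.56, 8.43 and 8.28 in those labelled iPS-derived NSC, and 9.65, 9.85, 9.82 and 9.08 in brain NSC. Array 2 labelled iPS was the highest of the 3, and the spread in that group was the widest of any member (SD 0.56). Probe sets along the transcript disagreed: of 6 others, 2 met the rule, and their differences from brain NSC ran between -0.89 and 2.34. Nxpe4, a neurexophilin-family protein of little studied function, was tight in every group. It read 9.90, 9.94 and 9.97 in the arrays labelled iPS, 3.62, 3.73 and 3.91 in those labelled iPS-derived NSC, and 7.80, 7.76, 7.65 and 7.69 in brain NSC.

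Zbed6, a DNA-binding repressor derived from a transposon, was alike in both other groups. Its values were 8.50, 8.78 and 8.48 in the arrays labelled iPS, 6.68, 6.33 and 6.10 in those labelled iPS-derived NSC, and 6.49, 6.47, 5.97 and 6.13 in brain NSC. The 1 other Zbed6 probe set ran the other way (-0.36 from brain NSC and -1.32 from iPS-derived NSC). It averaged 6.21 in the arrays labelled iPS, 7.52 in those labelled iPS-derived NSC and 6.57 in brain NSC. In both other groups it was thus brighter than the probe set used. Cadps2, which primes dense-core vesicles for release, stood in 3 separate steps, at 8.59, 8.48 and 8.54 in the arrays labelled iPS, 4.78, 4.67 and 4.43 in those labelled iPS-derived NSC, and 6.54, 6.53, 6.48 and 6.22 in brain NSC. Sostdc1, whose product is secreted and holds back BMP and Wnt ligands, was low outside the arrays labelled iPS, with 6.97, 7.22 and 7.24 there, 5.09, 5.15 and 5.15 in those labelled iPS-derived NSC, and 4.94, 4.91, 4.79 and 4.91 in brain NSC.

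**Figure D2:**
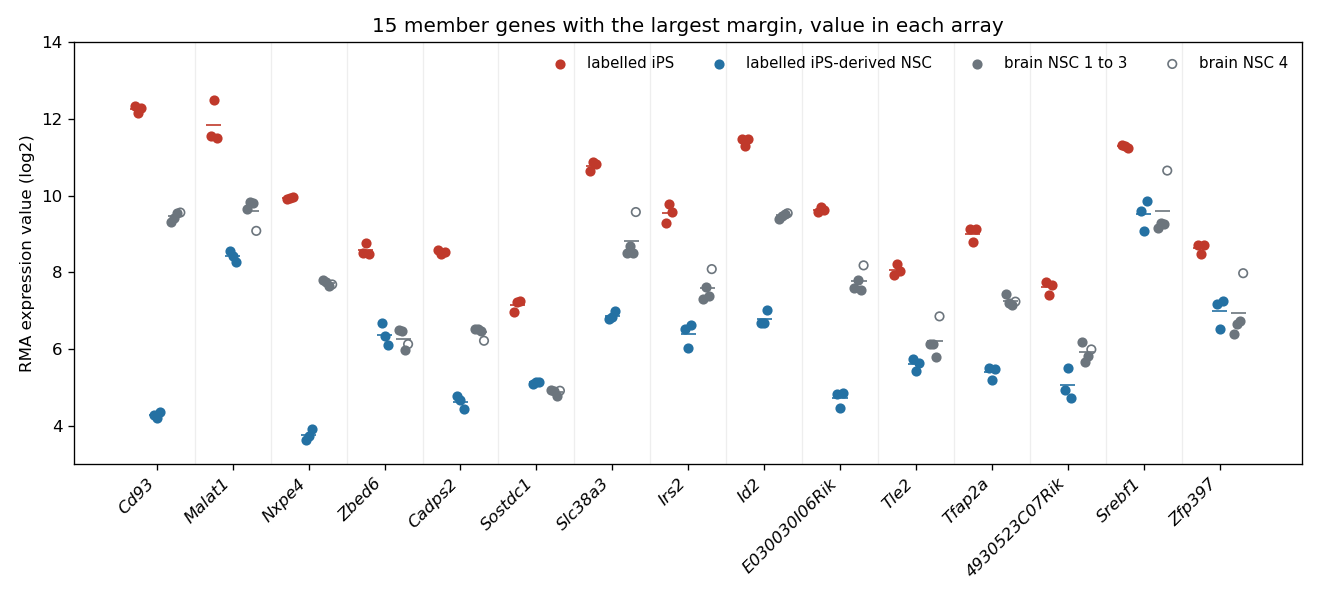
RMA expression value (log2) of the 15 members with the largest margin in each of the 10 arrays; dots are arrays, short lines are group means, and the open circle is brain NSC array 4. For each gene the arrays labelled iPS (left) lie above the other groups. Brain NSC array 4 stands clearly above its 3 partners for Slc38a3, Irs2, E030030I06Rik, Tle2, Srebf1 and Zfp397.

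Promoter windows of the members with the largest margins for which the table held one are shown because they differ in base composition and in the motifs they hold. Each is 300 bases of RefSeq sequence on the mouse assembly GRCm38.p6, 5′ to 3′ along the gene, with 250 bases before the start and 50 after it. Capitals mark matches, on either strand, to the TATA box TATAAA, the CCAAT box, the GC box GGGCGG, the E-boxes CACGTG and also CATATG, the AP-1 motif TGANTCA, the homeobox motifs TAATCC and also TAATTA, or the Egr motif GCGTGGGCG, which can overlap a GC box. The windows are Malat1, chr19:5802623-5802922 on the minus strand; Nxpe4, chr9:48361791-48362090 on the plus strand; Zbed6, chr1:133660836-133661135 on the minus strand; and Cadps2, chr6:23839372-23839671 on the minus strand.
Malat1: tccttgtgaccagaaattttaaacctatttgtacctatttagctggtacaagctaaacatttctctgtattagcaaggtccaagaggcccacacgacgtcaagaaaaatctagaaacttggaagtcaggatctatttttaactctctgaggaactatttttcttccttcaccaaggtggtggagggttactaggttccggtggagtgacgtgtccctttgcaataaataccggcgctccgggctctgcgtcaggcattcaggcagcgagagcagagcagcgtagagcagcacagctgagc
Nxpe4: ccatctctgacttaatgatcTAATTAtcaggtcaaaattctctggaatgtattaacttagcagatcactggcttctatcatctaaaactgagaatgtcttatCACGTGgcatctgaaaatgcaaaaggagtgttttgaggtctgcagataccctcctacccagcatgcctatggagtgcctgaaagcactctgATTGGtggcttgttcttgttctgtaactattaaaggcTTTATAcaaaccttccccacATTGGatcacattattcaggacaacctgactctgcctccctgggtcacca
Zbed6: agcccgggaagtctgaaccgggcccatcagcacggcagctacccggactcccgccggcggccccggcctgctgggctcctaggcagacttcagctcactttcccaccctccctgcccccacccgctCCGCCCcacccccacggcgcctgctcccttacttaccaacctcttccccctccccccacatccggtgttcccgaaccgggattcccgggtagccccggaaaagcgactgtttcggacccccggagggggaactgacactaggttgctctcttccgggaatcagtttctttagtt
Cadps2: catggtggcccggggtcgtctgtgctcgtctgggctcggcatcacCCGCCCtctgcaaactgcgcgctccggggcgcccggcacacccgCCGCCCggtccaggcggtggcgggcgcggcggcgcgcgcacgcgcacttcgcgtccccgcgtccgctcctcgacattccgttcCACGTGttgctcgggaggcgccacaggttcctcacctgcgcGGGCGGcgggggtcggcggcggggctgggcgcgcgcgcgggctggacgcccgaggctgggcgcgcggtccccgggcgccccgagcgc
The Nxpe4 window held 1 CG dinucleotide and matches to the TATA box, the CCAAT box, the E-box CACGTG and the homeobox motif TAATTA, while the Cadps2 window held 54 CG dinucleotides, 3 GC boxes and 1 E-box. The Zbed6 window had 1 GC box and 21 CG dinucleotides, and in the Malat1 window none of these letters were found and 10 CG dinucleotides were counted. Windows were matched for 175 members, 238 in all. GGGCGG was in 67.2% of them, in 66.0% of the 9200 windows of genes with a mean of at least 7 in the arrays labelled iPS and in 35.7% of all 32851 windows. CCAAT was in 26.9%, 38.0% and 37.4% in the same order, TATAAA in 10.1%, 6.49% and 13.6%, and CACGTG in 10.5%, 10.3% and 7.15%. The remaining motifs were each in at most 5.04% of the member windows. The median number of CG dinucleotides was 22 in member windows, 22 in those of bright genes and 7 in all. None of these differences between shares was tested.

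Among signalling genes (40 members), several act at the membrane. Irs2, the adaptor that passes insulin and IGF receptor signals on, read 9.30, 9.78 and 9.58 in the arrays labelled iPS, 6.52, 6.02 and 6.63 in those labelled iPS-derived NSC, and 7.32, 7.61, 7.38 and 8.09 in brain NSC. Its relative Irs1, chosen after its values were seen, was nearly equal, at 9.87 ± 0.10 in the arrays labelled iPS against 10.05 ± 0.07 in brain NSC, and Irs2 was the 1 member of 4 insulin receptor substrate genes. The receptor Fgfr1 read 10.85, 10.92 and 10.80 in the arrays labelled iPS, 8.74, 8.49 and 8.92 in those labelled iPS-derived NSC, and 9.62, 9.66, 9.58 and 10.30 in brain NSC. Of 36 measured receptor tyrosine kinases and their ligands, Fgfr1 and the collagen receptor Ddr2 were the 2 members. Among the non-members of that list Kit was called higher (2.15 ± 0.11, SE) and Met, Vegfc and Pdgfc lower in the arrays labelled iPS than in brain NSC. Met, the receptor of hepatocyte growth factor, averaged 3.98 in the arrays labelled iPS against 6.29 in brain NSC.

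Some members act on the Ras and MAP kinase pathway. Dusp4, a phosphatase that inactivates MAP kinases in the nucleus, read 9.72, 9.75 and 9.67 in the arrays labelled iPS, 8.19, 8.18 and 7.75 in those labelled iPS-derived NSC, and 8.40, 8.86, 8.49 and 8.54 in brain NSC. Spry1 and Spry4, Sprouty inhibitors of receptor signalling chosen after their values were seen, lay 1.16 and 1.11 above brain NSC. Their relatives, no members, differed from brain NSC by -0.21 for Spry2, -0.16 for Spry3, -0.39 for Spred1, 0.47 for Spred2 and 0.48 for Spred3, so 2 of the 7 Sprouty and Spred genes were members. The kinase Map2k2 and the small GTPase Rala were members too, with Rala at 10.73, 10.90 and 10.71 in the arrays labelled iPS, 9.17, 9.06 and 9.21 in those labelled iPS-derived NSC, and 9.36, 9.67, 9.22 and 9.46 in brain NSC. Both further Rala probe sets lay below brain NSC by -0.37 to -0.06.

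The lists of TGF-beta, Wnt and Hedgehog pathway genes held 4 members, and members outside these lists can act on the same pathways, as Sostdc1 does. Tgfb2, a TGF-beta ligand, was the 1 member of 19 measured genes of its list, at 8.52, 8.50 and 8.61 in the arrays labelled iPS, 4.85, 5.12 and 4.06 in those labelled iPS-derived NSC, and 7.32, 7.07, 7.14 and 7.24 in brain NSC. The Wnt receptor Fzd9 and the ligand Wnt7a were the 2 members of 37 measured genes of the Wnt list. Fzd9 read 11.41, 11.64 and 11.58 in the arrays labelled iPS, 6.47, 6.58 and 6.73 in those labelled iPS-derived NSC, and 10.22, 10.56, 10.35 and 11.25 in brain NSC, where array 4 came close to the arrays labelled iPS. Smo, the signal transducer of Hedgehog, was the 1 member of 13, and its brain NSC values of 9.50, 9.51, 9.56 and 10.56 reached the level of the arrays labelled iPS (10.53, 10.68 and 10.62) in array 4. In the arrays labelled iPS-derived NSC it read 7.83, 7.62 and 7.95. No gene of the Wnt or Hedgehog lists was called in either direction between the arrays labelled iPS and brain NSC.

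Inhibitors of differentiation split within a family. Id2, which binds and blocks basic helix-loop-helix factors, read 11.48, 11.30 and 11.47 in the arrays labelled iPS, 6.69, 6.68 and 7.01 in those labelled iPS-derived NSC, and 9.38, 9.48, 9.53 and 9.54 in brain NSC. Its relative Id3, no member, ran the other way, with 9.15, 8.999 and 9.28 in the arrays labelled iPS against 10.71, 10.88, 10.72 and 10.73 in brain NSC, a fall of 1.62 ± 0.09 (limma adjusted p = 1.95e-07). Hes5, the Notch effector, averaged 5.86 ± 0.21 in the arrays labelled iPS against 9.44 ± 0.44 in brain NSC, and it fell by 3.58 ± 0.19 (adjusted p = 7.49e-08). In the BMP and Id list of 19 genes, Id2 was the 1 called higher and Id3 the 1 called lower.

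The 3 co-repressors Tle2, Tle5 and Tle6 of the Groucho family on chromosome 10 were members, an observation made after values were seen. Tle2 read 7.93, 8.23 and 8.03 in the arrays labelled iPS, 5.75, 5.42 and 5.64 in those labelled iPS-derived NSC, and 6.13, 6.13, 5.79 and 6.85 in brain NSC. Tle5 and Tle6 lay 1.32 and 1.22 above brain NSC and 2.08 and 2.34 above the arrays labelled iPS-derived NSC. Tle1 on chromosome 4 and Tle4 on chromosome 19 differed from brain NSC by -0.07 and -0.22, and Tle3 on chromosome 9 was 0.87 above brain NSC but 0.02 from the arrays labelled iPS-derived NSC. Tle5, Tle2 and Tle6 are consecutive among the measured genes, so the family and the position cannot be told apart here.

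DNA-binding factors numbered 21 among the members. Tfap2a, an AP-2 factor of neural crest and ectoderm, read 9.12, 8.80 and 9.12 in the arrays labelled iPS, 5.51, 5.20 and 5.48 in those labelled iPS-derived NSC, and 7.43, 7.20, 7.14 and 7.24 in brain NSC. It was the 1 member of 5 AP-2 genes, and of 18 neural crest and Schwann cell markers it was also the 1 member. Lhx2, a homeobox factor of the early forebrain, read 8.49, 8.43 and 8.56 in the arrays labelled iPS, 3.48, 3.25 and 3.10 in those labelled iPS-derived NSC, and 6.98, 6.97, 7.07 and 7.76 in brain NSC. Factors of more posterior or mesenchymal identity were present as well. Irx5 and Hoxa4 lay 1.11 and 0.89 above brain NSC, as 2 of 30 measured hindbrain and cord factors. Twist1, a mesenchymal factor, read 7.96, 8.40 and 8.06 in the arrays labelled iPS, 4.95, 4.23 and 4.62 in those labelled iPS-derived NSC, and 6.60, 6.52, 6.64 and 6.996 in brain NSC. With Tgfb2 and Prrx2 it made up the 3 members of 22 meningeal and mesenchymal markers. The other 19 of these markers summed to 112.0 to 113.0 in the arrays labelled iPS against 112.1 to 113.4 in brain NSC, so the groups overlapped without the members. Otx2, a forebrain factor outside the members, was called higher in the arrays labelled iPS than in brain NSC (1.00 ± 0.16) but was highest in those labelled iPS-derived NSC, with a mean of 8.86.

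Immediate early genes, which cells switch on within minutes of a stimulus, gave 3 members of 29: Dusp4, Klf6 and Egr1. Klf6 read 8.84, 9.11 and 8.86 in the arrays labelled iPS, 8.02, 7.87 and 7.67 in those labelled iPS-derived NSC, and 7.88, 8.35, 7.92 and 7.61 in brain NSC. Its further probe sets spread between -0.62 and 0.24 against brain NSC, and without probe sets that can cross-hybridise its margin was -0.01. Ier2, no member, was higher than in brain NSC by 1.11 ± 0.12 (limma adjusted p = 5.66e-05) but lower than in the arrays labelled iPS-derived NSC.

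Of 7 genes of SREBP processing, Srebf1 and Scap were members. Srebf1, the SREBP-1 factor of lipid synthesis, read 11.33, 11.29 and 11.24 in the arrays labelled iPS, 9.61, 9.08 and 9.86 in those labelled iPS-derived NSC, and 9.15, 9.30, 9.26 and 10.66 in brain NSC. Scap, the escort protein of SREBPs, lay 0.90 above brain NSC, and Dhcr7, the last enzyme of cholesterol synthesis, read 11.65, 11.75 and 11.60 in the arrays labelled iPS, 9.49, 9.27 and 9.63 in those labelled iPS-derived NSC, and 10.33, 10.16, 10.37 and 11.72 in brain NSC. For Dhcr7, brain NSC array 4 was as high as the arrays labelled iPS. Of 20 measured genes of cholesterol synthesis 17 were called higher in the arrays labelled iPS than in those labelled iPS-derived NSC, but against brain NSC Dhcr7 was the 1 called, and the list's median difference was 0.20.

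Surface, adhesion and matrix proteins (25 members) included 3 of 15 integrins. Itga1, which pairs to bind collagen and laminin, read 8.18, 8.16 and 8.27 in the arrays labelled iPS, 4.85, 5.12 and 5.11 in those labelled iPS-derived NSC, and 7.19, 7.21, 7.28 and 6.85 in brain NSC. Itga9 and Itgb5 lay 1.03 and 1.59 above brain NSC, whereas Itga7 and Itgb8 were called lower than in brain NSC. Among 25 cadherins Cdh4, which joins retinal and neural cells, was the 1 member, at 11.48, 11.51 and 11.54 in the arrays labelled iPS, 7.26, 7.09 and 7.63 in those labelled iPS-derived NSC, and 10.36, 10.43, 10.31 and 10.91 in brain NSC. Pcdh7 and 3 more cadherin-family genes were called lower, Pcdh7 with a mean of 3.32 ± 0.16 in the arrays labelled iPS against 7.83 ± 0.39 in brain NSC. Matn2 and Igfbp4 were the members among 47 matrix genes, Matn2 lying 1.10 and Igfbp4 0.89 above brain NSC.

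Channels, transporters and synaptic proteins (12 members) had their largest margins in Cadps2, described above, and Slc38a3, which carries glutamine. Slc38a3 read 10.64, 10.88 and 10.82 in the arrays labelled iPS, 6.78, 6.83 and 7.004 in those labelled iPS-derived NSC, and 8.52, 8.69, 8.51 and 9.58 in brain NSC. The potassium channel Kcnc1 spanned the most among channels, with 11.19, 11.26 and 11.19 in the arrays labelled iPS, 5.39, 5.06 and 4.85 in those labelled iPS-derived NSC, and 10.08, 10.34, 10.03 and 10.70 in brain NSC. Kcnmb4, an accessory subunit of the BK channel, was 0.85 above brain NSC, while the pore subunit Kcnma1 averaged 6.96 in the arrays labelled iPS against 7.88 in brain NSC, a difference of -0.92.

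Metabolic and redox genes (28 members) included Car6 and Mt3. Car6, a secreted carbonic anhydrase, read 7.53, 7.41 and 7.48 in the arrays labelled iPS, 6.49, 6.62 and 6.51 in those labelled iPS-derived NSC, and 4.61, 4.43, 4.42 and 4.26 in brain NSC. Its difference from brain NSC, 3.04, was the largest of the 231 members. Mt3, a metallothionein of brain, showed the widest spread within brain NSC, at 9.33, 9.20, 9.32 and 11.79, against 11.04, 11.55 and 11.33 in the arrays labelled iPS and 6.43, 6.47 and 7.21 in those labelled iPS-derived NSC. Among cell cycle genes, Ccnd2 (cyclin D2) was the 1 member of 32, at 13.33, 13.35 and 13.41 in the arrays labelled iPS, 7.10, 6.84 and 6.15 in those labelled iPS-derived NSC, and 12.26, 12.40, 12.35 and 12.76 in brain NSC. Cyclin D1, Ccnd1, was level at 12.66 in the arrays labelled iPS against 12.64 in brain NSC, and Cdk6, a partner of D cyclins, fell by 2.14 ± 0.15 against brain NSC (adjusted p = 1.21e-06).

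The gene lists were broader than the members. Across 46 lists of pathways and cell type markers, 1014 distinct genes were measured and 41 were members, while the rule took 1.27% of all genes. A list of tumour and growth genes of chromosome 8 was among them, with 5 members of 38 measured genes. Between the arrays labelled iPS and brain NSC, 6.90% of the list genes were called, against 1.84% of all genes, with 36 higher and 34 lower. Outside the members these counts were 9 and 34, a split that leaving out the members, all higher by the rule, shapes. The lists were chosen with earlier results of these data known, so their shares of members and of calls are a description. Of 33 chromatin regulators 2 were members, Ring1, a Polycomb ubiquitin ligase, and Chd7, a chromatin remodeller, at 1.29 and 1.22 above brain NSC. A further Chd7 probe set, with a mean of 7.22 in the arrays labelled iPS, differed from brain NSC by -0.40.

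The difference of the arrays labelled iPS-derived NSC from brain NSC is the difference between both quantities the rule used. Its sign for a member says only which of them was smaller, so the values and calls below are a description. Of the 231 members, 99 (42.9%) were called lower in the arrays labelled iPS-derived NSC, 1 higher and 131 not called. Over all genes 14% were called lower and 11.3% higher, and over the 8700 genes with a mean of at least 7 in the arrays labelled iPS 25.3% lower and 10.5% higher. The median difference of members was -0.84, against -0.14 over the 8700. All arrays labelled iPS-derived NSC lay below all brain NSC arrays for 159 members, which holds for 25.4% of all genes.

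The members with the lowest difference in this comparison were Nfix, Ccnd2, Wscd1 and Ecrg4. Nfix, a nuclear factor I protein of neural stem cells, read 12.74, 12.58 and 12.77 in the arrays labelled iPS, 5.18, 5.19 and 5.75 in those labelled iPS-derived NSC, and 11.95, 11.44, 11.82 and 12.07 in brain NSC. The arrays labelled iPS-derived NSC thus stood apart from both other groups, with a difference of -6.45 from brain NSC. The relatives Nfia and Nfib, named after values were seen, differed by -5.56 and -5.06 in the same comparison but were no members, since the arrays labelled iPS differed from brain NSC by -0.26 and 0.30. The difference was -5.75 for Ccnd2, -5.56 for Wscd1 and -5.42 for Ecrg4, which encodes a secreted peptide of choroid plexus and progenitors. Car6 had the highest difference, at 2.11.

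Another 37 members lay within 0.2 of brain NSC in the arrays labelled iPS-derived NSC, among them some of the largest margins. The difference was 0.11 for Zbed6, 0.04 for the zinc finger gene Zfp397 and -0.07 for Srebf1. By role, the number called lower was 19 of 67 genes with another or no placed role, 8 of 24 co-regulator, chromatin and RNA genes, 9 of 12 channel, transporter and synaptic genes, 10 of 21 DNA-binding factors, 14 of 25 surface and matrix genes, 9 of 14 cell cycle, cytoskeleton and cell death genes, 16 of 40 signalling genes and 14 of 28 metabolic genes. The role classes were assigned after values were seen.

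**Figure D3:**
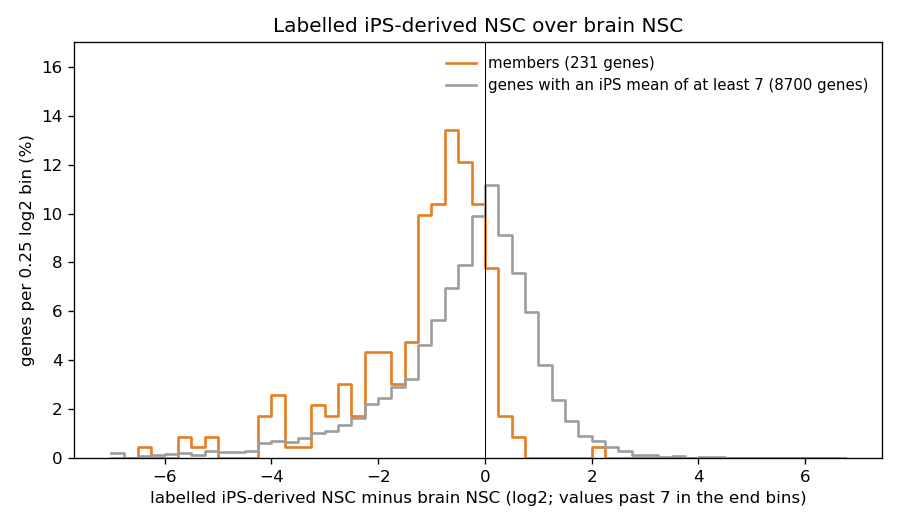
Share of genes (%) per 0.25 log2 bin of the difference between the arrays labelled iPS-derived NSC and brain NSC, for the 231 members (orange) and the 8700 genes with a mean of at least 7 in the arrays labelled iPS (grey). The members lie mostly below 0, with a median of -0.84, and a tail reaches -6.45.

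Among the brain NSC arrays, array 4 lay closest to the arrays labelled iPS over the members. The median over members was 9.45, 9.53 and 9.54 in the arrays labelled iPS, 7.23, 7.07 and 7.35 in those labelled iPS-derived NSC, and 8.23, 8.41, 8.27 and 8.92 in brain NSC. Array 4 of brain NSC was the highest of the 4 for 181 members (78.4%), against 43.4% of the 8700 genes. The mean of the arrays labelled iPS was at least 0.8 above array 4 alone for 79 members (34.2%) and below it for 13. Over the 8700 genes these counts were 168 and 4130. The median difference from brain NSC was 1.16 with arrays 1 to 3 and 0.58 with array 4. Without array 4 the rule took 327 genes, 228 of them shared, and 85 members were called lower in the arrays labelled iPS-derived NSC than in brain NSC.

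The array moved some members and not others. Its values were at least 1 unit above the mean of its partners for 42 members, and for 146 of the 8700 genes. The 42 were led by Mt3 (2.51), Scaf1 (1.79) and Abhd17a (1.68), the last 2 chosen after values were seen. Dhcr7 (1.43), Srebf1 (1.42) and Zfp397 (1.39) were among them. Among the 15 members with the largest margin the distance of the arrays labelled iPS from array 4 alone was 2.70 for Cd93, 2.77 for Malat1, 2.25 for Nxpe4, 2.45 for Zbed6, 2.32 for Cadps2 and 2.23 for Sostdc1. It was 1.87 for Id2, 1.78 for Tfap2a, 1.62 for 4930523C07Rik, 1.46 for Irs2, 1.45 for E030030I06Rik, 1.21 for Tle2 and 1.204 for Slc38a3, and below 0.8 for Srebf1 (0.63) and Zfp397 (0.65). Sod1, superoxide dismutase, and Malat1 were lower in array 4 than in its partners, by -1.05 and -0.69. Whether array 4 is a separate culture, or differs in its preparation, is not stated in the labels.

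**Figure D4:**
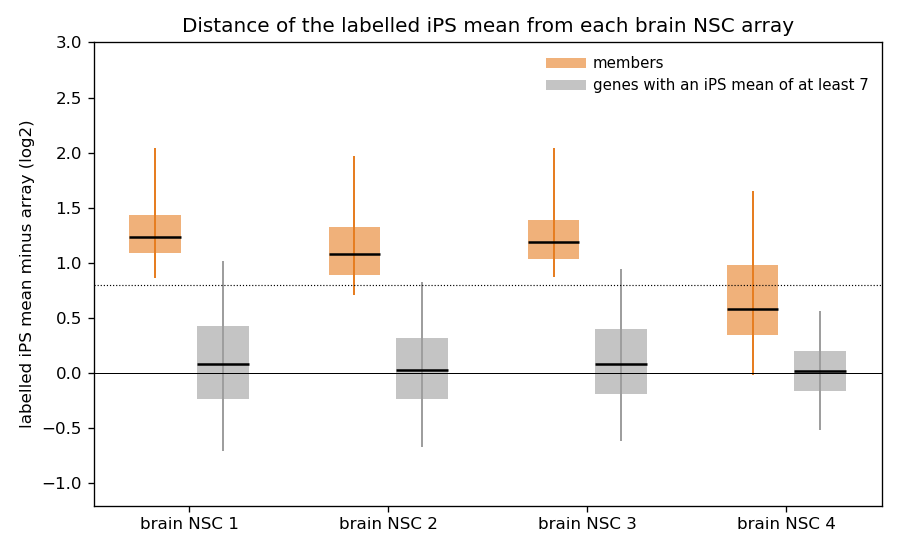
Difference of the mean of the arrays labelled iPS from each single brain NSC array (log2), for the 231 members (orange, left) and the 8700 genes with a mean of at least 7 in the arrays labelled iPS (grey, right); boxes span the quartiles, black lines are medians and vertical lines run between the 5th and 95th percentiles. Medians of members are 1.24, 1.08 and 1.19 for arrays 1 to 3 and 0.58 for array 4.

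The chromosome of a gene was not used by the rule, and 1 chromosome stood out. Chromosome 8 held 43 members, 18.6% of them, against 5.89% of the 8700 genes. Of the bright genes of chromosome 8, 8.40% were members, and on the other numbered chromosomes and X between 1.04% and 3.83%. The whole chromosome was shifted: the median difference of its bright genes between the arrays labelled iPS and brain NSC was 0.46, and 91.4% of them were above 0, against a median of 0.04 for bright genes elsewhere. The shift was 0.48 against brain NSC arrays 1 to 3 and 0.35 against array 4. Against the arrays labelled iPS-derived NSC the median of chromosome 8 was 0.17, compared with 0.22 over all bright genes. The arrays labelled iPS-derived NSC were also raised over brain NSC on this chromosome. Their median difference there was 0.26, against -0.14 over all bright genes, so both groups shared the shift.

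When each gene was measured relative to the median of its own chromosome, a check chosen after the data were seen, 138 genes met the rule and 4 of them (2.90%) were on chromosome 8. The members lost numbered 95, of which 39 were on chromosome 8. Irs2, Fgfr1, Dusp4, Irx5, Mt3 and Nfix all lie on this chromosome. Relative to the chromosome median Irs2 (1.49) and Mt3 (0.94) still met the rule, while the margins of Dusp4 (0.68), Irx5 (0.65), Fgfr1 (0.61) and Nfix (0.42) were below 0.8. The densest stretch of 40 consecutive measured genes held 10 members on chromosome 8, among them Pik3r2, Nr2f6, Plvap and Slc27a1, where 29 genes were bright with a median difference of 0.83 from brain NSC. The next densest was the stretch of chromosome 10 with Map2k2, Fzr1, Ncln, Tle5, Tle2 and Tle6, whose 25 bright genes had a median of 0.53.

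**Figure D5:**
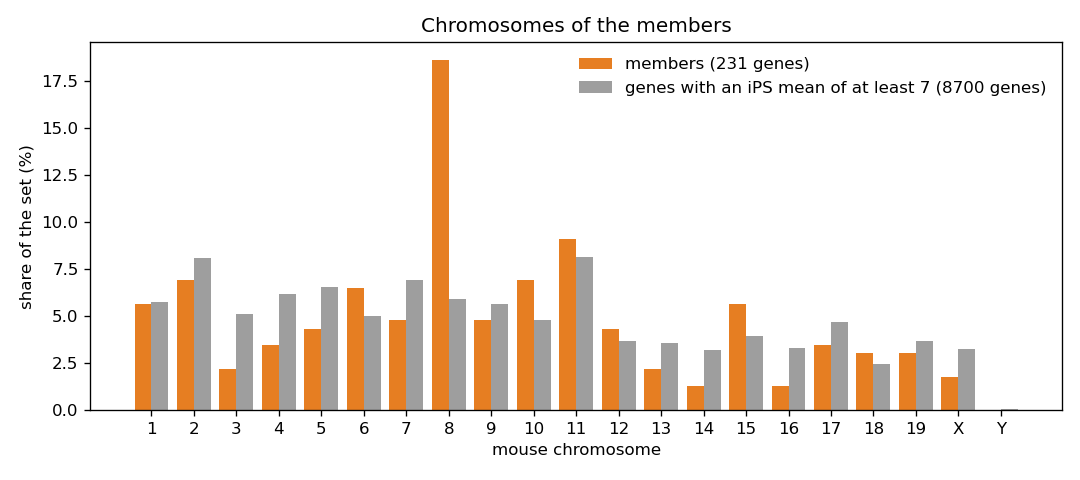
Share (%) of the 231 members (orange, left) and of the 8700 genes with a mean of at least 7 in the arrays labelled iPS (grey, right) on each mouse chromosome. Chromosome 8 carries 18.6% of the members and 5.89% of the 8700 genes.

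Other probe sets of the members give a view of how far a single probe set decides. Of the members, 132 had 292 further probe sets, and 165 of these were at 7 or more in the arrays labelled iPS. Of the 165, 143 were above brain NSC and 153 above the arrays labelled iPS-derived NSC, and 59 met the whole rule. They come from the same arrays and contrasts as the rule, so the counts are a description. For 53 of the 132, at least 1 further probe set of any level lay under 0 in either difference. With the mean of each gene's probe sets, 154 genes met the rule, 136 of them members. The 2 further Zfp397 probe sets lay at -0.41 and 0.13 against brain NSC, against 1.70 for its brightest. Genes named for disagreeing probe sets included N6amt1, a methyltransferase, the aminopeptidase Npepps and Zbtb7c, whose further probe sets lay between -0.37 and 0.57 against brain NSC, while their brightest ones lay above it by 1.54 for N6amt1 and 1.70 for Npepps.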

How the data were processed

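Gene expression was measured in mouse cells on 10 Affymetrix arrays, grouped by the sample titles. The deposited table holds log2 RMA values, 1 per probe set and array. RMA is named in the submitters' processing notes and Bioconductor in the labels, neither with a version. RMA makes the distributions of the arrays alike, so a shift shared by most genes would be largely removed, and differences between dim genes are compressed. Precision is limited by the number of arrays. The labels' protocols give DNase-treated total RNA, 1 microgram of it labelled in a single round.

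Of 45101 probe sets, 64 were controls, 34945 had 1 symbol in the platform annotation, 932 had several and 9160 had none. Each of 18193 genes was read by its brightest probe set over the 10 arrays. Chromosomes, gene order and promoter windows came from RefSeq on GRCm38.p6, where 230 of the 231 members were found by Entrez identifier; no source used here names the build behind the probe sets. No coordinates other than those of the promoter windows are given.

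Differences were fitted with limma 3.58.1 (R 4.3.3; lmFit and eBayes, 3-group layout over all 10 arrays, 7 residual and 5.95 prior degrees of freedom), two-sided, with Benjamini-Hochberg adjustment over 18193 genes. Array quality was compared by exact two-sided permutation tests, which with 3 against 4 arrays cannot go below 0.0286. Tests were checked on simulated data. Tables and figures were made with Python 3.11.15, pandas 2.3.3, numpy 2.4.6, scipy 1.17.1 and matplotlib 3.10.9. Alternatives were other gaps and levels in the rule, group medians, other probe set choices, quantile normalisation, a filter on dim genes, an intensity trend, a 1.5-fold threshold test, a replicate block and leaving out each array.

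The members, the gene lists and the tests were chosen with earlier results of these data known. The 78 named genes were the 15 members with the largest margin, the 2 of largest margin in each list, the 3 genes on each side of the threshold, the called members with the lowest and highest difference between the arrays labelled iPS-derived NSC and brain NSC, the most changed non-member of each list with a member, up to 10 DNA-binding factors or members with disagreeing probe sets, and 5 checks of the labels. Other genes in the text were chosen after their values were seen.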

Additional observations from a re-analysis of the deposited data

Results flagged for a closer look

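Within brain NSC, 78 named genes were screened for 1 array far from its 3 partners, where chance flags about 1 in 20 groups, and 11 were picked out. Brain NSC array 4 was high for 10 of them. Among signalling genes it read 10.30 for Fgfr1 against 9.58 to 9.66 in its partners, and 10.56 for Smo against 9.50 to 9.56. Among DNA-binding and chromatin genes it read 10.66 for Srebf1 against 9.15 to 9.30, 7.76 for Lhx2 against 6.97 to 7.07, 8.21 for Chd7 against 7.42 to 7.47, and 7.53 for Zbtb7c against 6.74 to 6.84. Among metabolic and transport genes it read 11.72 for Dhcr7 against 10.16 to 10.37, 11.79 for Mt3 against 9.20 to 9.33, 9.58 for Slc38a3 against 8.51 to 8.69, and 10.33 for Slc7a5 against 9.24 to 9.26. Slc7a5, a large neutral amino acid transporter, is no member. Brain NSC array 2 read 10.88 for Id3 against 10.71 to 10.73 in its partners.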

How the results depend on the processing

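The number of members followed the rule's settings: 101 genes met a gap of 1 log2 unit and 452 a gap of 0.6. With the mean of each gene's probe sets 154 genes met the rule, 136 of them members. Relative to each chromosome's median, a check added after the data were seen, 138 genes met it, with 2.90% of them on chromosome 8. Leaving out each array gave 181 to 327 members and 16.5% to 20.4% of them on chromosome 8, and 149 of the 231 met the rule in all 10 such settings. Without brain NSC array 4, 537 genes were called between the arrays labelled iPS and brain NSC instead of 335, and the mean of all probe sets gave 223 and a threshold test at 1.5-fold 183. Leaving out each array gave 296 to 537 in that comparison, 4586 to 4644 for iPS over iPS-derived NSC, 4575 to 4702 for iPS-derived NSC over brain NSC, and 65 to 85 list genes called for iPS over brain NSC. Members called lower in the arrays labelled iPS-derived NSC than in brain NSC numbered 85 to 107, and 1 was higher in each. The 1 higher, Car6, was not tested without cross-hybridising probe sets (209 members tested) or without dim genes (228 tested), which gave 0. Over all alternatives, the ranges above included, 130 recomputed counts and chromosome 8 shares lay within 1.5 times of the value reported and 10 did not. Without cross-hybridising probe sets 3 single values changed sign: Malat1 for iPS-derived NSC over brain NSC (0.26), the margin of Klf6 (-0.014) and Plagl1 for iPS over brain NSC (0.064). The cause was not tested.

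With the replicate number as a block, 537 genes were called for iPS over brain NSC, 4599 for iPS over iPS-derived NSC and 4658 for iPS-derived NSC over brain NSC, and 85 members were lower and 1 higher in the last. Number 4 exists in brain NSC only, so the block takes that array out of the comparisons. Same-numbered arrays correlated between -0.21 and 0.13 in their deviations from the group means, so the numbers do not pair the arrays.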

Other observations

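Genes called lower in the arrays labelled iPS than in brain NSC, and so outside the members, fell in several of the same lists. Interferon genes gave 3 that fell, Ifi202b, Gbp2 and Gbp3, beside the member Ifi35, while Ifitm2, no member, was called higher by 1.76 (limma adjusted p = 1.41e-07), and Ifi202b averaged 4.75 ± 0.18 in the arrays labelled iPS against 8.23 ± 0.12 in brain NSC. Reln, the secreted guidance protein reelin, averaged 5.69 ± 0.13 in the arrays labelled iPS against 7.76 ± 0.14 in brain NSC. Car8, a carbonic anhydrase relative, fell by 2.58 ± 0.13 (limma adjusted p = 6.51e-08), while Car3 and Car6 were members of the same list. Plagl1, an imprinted zinc finger gene, averaged 7.66 in the arrays labelled iPS against 9.20 in brain NSC, and was highest at 11.38 in those labelled iPS-derived NSC. Its probe set can cross-hybridise, and without such probe sets its difference from brain NSC was 0.064 (limma adjusted p = 0.707). The imprinted gene Mest was a member at 13.72, against 10.72 in those labelled iPS-derived NSC and 12.86 in brain NSC.

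The arrays limit these values to 3 or 4 per group with no detection calls, so whether a dim gene was detected was not tested. The labels do not say whether arrays of a group are separate cultures, and p-values measure only the spread between these arrays. The direction of every difference involving the arrays labelled iPS or iPS-derived NSC depends on labels that the markers contradict.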
